A study of Mus musculus with 10 samples.

Results

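The genes described here are 49 genes that dividing cells use to copy DNA and to separate chromosomes, out of 31053 genes measured by single-cell RNA-seq (scRNA-seq) in mouse intestinal organoids and colonic crypts. They were listed by gene name. S phase genes number 21, mitosis genes 27, and Mki67, which is expressed in all active phases of the cell cycle, is kept apart from both lists. All 49 were found in the deposited matrices.

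Organoids were grown from crypts of the mouse proximal small intestine in 3 media. The 3 libraries of ENR-organoids had Noggin, EGF and R-Spondin 1 in their medium. The 3 libraries of Hyper-organoids had 8 components, which were the growth factors EGF and FGF2, R-Spondin 1 as conditioned medium, and the small molecules VPA (an inhibitor of histone deacetylases), EPZ6438 (which blocks the histone methyltransferase EZH2), LDN193189, Pexmetinib and GSK-3 Inhibitor XV. The 2 libraries of -VE-organoids had this medium without VPA and EPZ6438. EGF and R-Spondin 1 were thus present in every organoid group, and the comparison of -VE- with ENR-organoids covers LDN193189, the GSK-3 inhibitor, Pexmetinib, FGF2, the absence of Noggin and the source of R-Spondin 1 together. ENR-organoids were taken at passages 2, 7 and 3, -VE-organoids at passages 1 and 6 and Hyper-organoids at passages 1, 6 and 3. Hyper-organoid replicates 1 and 2 and both -VE-organoid libraries started from ENR-organoids, and replicate 3 of ENR- and of Hyper-organoids started from primary crypts. The remaining 2 libraries were colonic crypts, 1 from normal mice and 1 from mice treated with dextran sulfate sodium (DSS), which injures the colonic epithelium. Libraries whose sample codes share their first part are treated here as a culture series. No label names these series or says whether they were separate cultures. The labels do not tie a library to an animal or give the animals' age, so p-values measure the spread between these libraries.

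In crypts, stem cells at the base divide and their daughters divide further as transit amplifying cells before they differentiate. Before S phase, Cdc6 and Cdt1 load the ring of Mcm2 to Mcm7 onto DNA, cyclin E with its kinase starts replication, and the ring, joined by Cdc45 and the GINS complex, unwinds the helix. Mitosis genes are made later, in G2 and M phase, where cyclin B with Cdk1 drives entry, Aurora and Polo-like kinases and kinesins build the spindle, and the anaphase-promoting complex with Cdc20 and Ube2c ends mitosis. A cell's summed RNA from each list therefore follows where in the cycle it is, and in a library it also follows how many cells are cycling.

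The 8 organoid libraries held between 1983 and 4293 annotated cells and between 89124015 and 170019527 unique molecular identifiers (UMIs, each standing for 1 captured RNA molecule), with medians of 38173.5 to 50651.5 UMIs per cell. Cell classes are those of the authors' annotation, in which SC are stem cells (6065 cells) and TA are transit amplifying cells (10117 cells) of 25204 annotated cells in all 10 libraries. SC cells took 14.7%, 12.2% and 9.75% of the ENR-organoid libraries, 28.2% and 24.3% of the -VE-organoid libraries and 40.04%, 42.04% and 44.1% of the Hyper-organoid libraries. TA cells took 43.6%, 39.8% and 32.9%, 49.1% and 53.1% and 50.00000%, 46.9% and 42.4% in the same order of groups. The study formed clusters from variable genes of the whole transcriptome and named them by markers, among them Top2a, a member of the mitosis list, for TA clusters. A level in TA against a level in SC is therefore given as a description with no test. Per the study, the clusters named SC were different ones in Hyper- and in ENR-organoids, and TA cells of these media also lay apart, so a comparison of media within SC or TA sets different clusters side by side. The study also found that stem cells of -VE-organoids clustered with those of ENR-organoids. The limit thus holds for SC cells of Hyper- against -VE-organoids too. The table of cells used here gives the class of a cell and not its cluster. SC cells of every library held all 6 stem cell markers examined, but their makeup differed, since Olfm4 was at 2977 to 4336 CPM (UMI counts scaled to a common library total) in SC cells of ENR-organoids and at 22.03 to 630.4 CPM in those of Hyper-organoids, while Lgr5 was at 88.3 to 111 and 122 to 163 CPM. The 7 leukocyte markers summed to at most 0.965 CPM in SC and TA cells. The 5 stromal markers summed to 15.2 to 97.2 CPM in SC cells of Hyper-organoids, of which Vim alone gave 14.8 to 96.7 CPM, against at most 0.387 CPM for all 5 in those of ENR- and -VE-organoids, and Col1a2 and Col3a1 were at 0 in SC cells of Hyper-organoids. The part of these markers in the results was not tested. Any pair of the 10 libraries shared at most 5 cell barcodes.

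Over all cells, 16 of 27 mitosis genes were lower in Hyper- than in ENR-organoids, while 17 of 21 S phase genes did not pass the test. A gene was called where the edgeR quasi-likelihood test across all 16037 genes gave a Benjamini-Hochberg adjusted p under 0.05. The other 11 mitosis genes did not pass, and the list had a median log2 fold change of -0.23 and a range of -0.55 to 0.08. Of 21 S phase genes, 3 were higher and 1 was lower, with a median of 8.3e-05 and a range of -0.19 to 0.60. Among all genes tested 29.5% were called higher and 27.3% lower in this comparison, with a median of -0.0073, so the share of S phase genes called lay below that of all genes and the share of mitosis genes called lower lay above it. Summed in plain CPM (before TMM scaling), the mitosis list was at 2725, 2788 and 2664 CPM in ENR-organoid replicates 1 to 3 and at 2646, 2445 and 2366 CPM in those of Hyper-organoids, with no overlap. The S phase list was at 1369, 1369 and 1156 CPM in ENR- and at 1481, 1515 and 1332 CPM in Hyper-organoids, higher in Hyper-organoids within each culture series, although the ranges overlapped. Levels summed over a library cannot tell fewer cycling cells from less RNA per cycling cell. The makeup of the libraries moved with these sums. SC cells took 9.75% to 14.7% of ENR- and 40.04% to 44.1% of Hyper-organoid libraries. Their mitosis sums were 652 CPM ± 27.8 and 754 CPM ± 76.3, against 3986 CPM ± 68.2 and 3898 CPM ± 131 in TA cells (SD, n = 3 each). Enterocyte progenitors (EP) had 2732 CPM ± 138 (SD, n = 3) in ENR-organoids, where whole libraries had a mean of 2726 CPM. EP cells were 22.2%, 24.4% and 34.5% of the cells of ENR-organoid libraries, 4.39% and 4.29% of those of -VE-organoids and 0.107%, 0.0852% and 0.101% of those of Hyper-organoids. The part of these classes in the result was not tested. Without ENR-organoid replicate 1 the 49 genes held 13 calls and without replicate 2 they held 12, against 21 with all libraries.

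Among the S phase genes, those that rose were a cyclin, a repair enzyme and an enzyme of nucleotide supply. Cyclin E1 (Ccne1), which drives cells from G1 into S phase, was at 18.01, 18.9 and 16.2 CPM in the 3 ENR-organoid libraries, 19.4 and 23.6 CPM in the 2 -VE-organoid libraries and 23.6, 28.5 and 28.2 CPM in the 3 Hyper-organoid libraries. Every Hyper-organoid library lay above every ENR-organoid library, and the rise was 1.51-fold (log2 fold change 0.60, SE 0.11, edgeR adjusted p 0.00163). Such separation was common. Over all cells, 32.7% of all genes had every Hyper- above every ENR-organoid library, and 31.6% had every one below. The shares were 30.3% and 27.9% in SC cells and 31.9% and 30.8% in TA cells. Ung, the glycosylase that removes uracil from DNA, was at 28.8, 28.4 and 28.8 CPM in ENR-, 34.2 and 33.6 CPM in -VE- and 35.3, 42.3 and 42.5 CPM in Hyper-organoids (log2 fold change 0.48, SE 0.07, edgeR adjusted p 0.000762). The 3 groups did not overlap, with -VE-organoids in between, and Hyper- were also above -VE-organoids (log2 fold change 0.24, SE 0.08, edgeR adjusted p 0.0404). The latter call was lost when the culture series was a block (edgeR adjusted p 0.0605) and without any 1 of ENR-organoid replicates 1 and 2, -VE-organoid replicates 1 and 2 and Hyper-organoid replicates 2 and 3 (edgeR adjusted p up to 0.161). Rrm2, the small subunit of ribonucleotide reductase, which makes deoxynucleotides, was at 98.97, 108 and 90.2, 105 and 121 and 121, 127 and 111 CPM in ENR-, -VE- and Hyper-organoids (log2 fold change 0.27, SE 0.09, edgeR adjusted p 0.0245). All Hyper-organoid libraries were above all ENR-organoid libraries, and -VE-organoids overlapped with Hyper-organoids.

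Thymidylate synthase (Tyms), which makes the thymidine nucleotide, was the S phase gene that fell, from 124, 127 and 121 CPM in ENR- to 114, 114 and 104 CPM in Hyper-organoids, with 125 and 127 CPM in -VE-organoids (log2 fold change -0.17, SE 0.05, edgeR adjusted p 0.0234). ENR- and Hyper-organoids did not overlap, although the step was small and was no longer called without ENR-organoid replicate 1, ENR-organoid replicate 2 or Hyper-organoid replicate 3, with an adjusted p of up to 0.0878. Rrm2 was likewise not called without ENR-organoid replicate 1, ENR-organoid replicate 3 or Hyper-organoid replicate 2, with an adjusted p of up to 0.0776. The S phase gene with most UMIs, Mcm7 of the replicative helicase, was at 131, 135 and 124 CPM in ENR-, 142 and 147 CPM in -VE- and 121, 122 and 112 CPM in Hyper-organoids (log2 fold change -0.13, SE 0.05, edgeR adjusted p 0.0667). Hyper- lay below ENR-organoids in every library, as for 31.6% of all genes, without passing the test. Slbp, which binds the stem-loop of histone mRNAs during S phase, was nearly level, at 111, 112 and 106, 112 and 113 and 109, 115 and 108 CPM in the same order of groups (log2 fold change 0.02, SE 0.05, edgeR adjusted p 0.789).

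Among the mitosis genes the falls were spread over most roles. Both genes of chromosome structure (Top2a and Smc4) and both of mitotic exit (Cdc20 and Ube2c) were lower, as were 5 of 6 spindle genes, 2 of 4 entry genes, 2 of 4 genes of the mitotic kinases and their partner, and 1 of 3 in each of the checkpoint, centromere and cytokinesis groups. Top2a, the topoisomerase that untangles sister chromatids, was at 185, 189 and 173 CPM in ENR-, 168 and 201 CPM in -VE- and 123, 128 and 124 CPM in Hyper-organoids (log2 fold change -0.55, SE 0.07, edgeR adjusted p 0.000339). All 3 Hyper-organoid libraries lay below all 5 others. Kif23, a kinesin of the midbody that cytokinesis needs, was at 54.2, 53.1 and 52.3, 51.7 and 59.1 and 38.04, 36.4 and 37.5 CPM in ENR-, -VE- and Hyper-organoids (log2 fold change -0.51, SE 0.06, edgeR adjusted p 0.000152). Here too the Hyper-organoid libraries stood below all the others, at 0.701-fold of the ENR level.

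Survivin (Birc5), the partner of Aurora B at centromeres, was at 235, 253 and 261 CPM in ENR-, 227 and 239 CPM in -VE- and 192, 176 and 174 CPM in Hyper-organoids (log2 fold change -0.46, SE 0.06, edgeR adjusted p 0.000348). Smc4, a subunit of condensin, was at 199, 193 and 177, 188 and 196 and 158, 142 and 135 CPM (log2 fold change -0.39, SE 0.07, edgeR adjusted p 0.00203). For both genes the Hyper-organoid libraries were lower than all libraries of the other media. Ube2c, the ubiquitin-conjugating enzyme of mitotic exit and the member with most UMIs, was at 404, 448 and 470.3 CPM in ENR-, 436 and 457 CPM in -VE- and 391, 361 and 376 CPM in Hyper-organoids (log2 fold change -0.23, SE 0.07, edgeR adjusted p 0.0167), and its call was lost without ENR-organoid replicate 2 or Hyper-organoid replicate 2, with an adjusted p of up to 0.0656. Mki67, which coats mitotic chromosomes and is the usual stain for cycling cells, was at 196, 186 and 148 CPM in ENR-, 167 and 184 CPM in -VE- and 141, 141 and 116 CPM in Hyper-organoids (log2 fold change -0.41, SE 0.12, edgeR adjusted p 0.017). Its groups did not overlap between ENR and Hyper, but its ENR-organoid libraries were spread widely and the call was lost without ENR-organoid replicate 1, ENR-organoid replicate 2 or Hyper-organoid replicate 3, with an adjusted p of up to 0.0624.

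Against -VE-organoids, whose medium lacks VPA and EPZ6438, called genes of both lists were mostly lower in Hyper-organoids. Hyper-organoid replicate 3, from primary crypts at passage 3, has no -VE counterpart of that origin or passage. Of the S phase genes 1 (Ung) was higher and 8 were lower, with a median log2 fold change of -0.15, and of the mitosis genes 13 were lower and the other 14 did not pass, with a median of -0.25, beside 25.0% of all genes higher, 22.6% lower and a median of 0.014. The 8 were Mcm3, Mcm5, Mcm7, Cdc45, Cdc6, Cdt1, Tyms and Rrm1, so 6 of them load or form the replicative helicase. Top2a (log2 fold change -0.56, SE 0.08, edgeR adjusted p 0.000893) and Kif23 (log2 fold change -0.57, SE 0.06, edgeR adjusted p 0.000299) again fell most. The comparison shares its Hyper-organoid libraries with the one against ENR-organoids. It rested on both -VE-organoid libraries, since the 49 genes held 11 calls without -VE-organoid replicate 1, 6 without -VE-organoid replicate 2 and 14 without Hyper-organoid replicate 3, against 23.

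Between -VE- and ENR-organoids all 21 S phase genes were higher in -VE-organoids, by a median of 0.17 on the log2 scale, but only Cdc6 was called, beside 4.26% of all genes higher and 3.62% lower. Cdc6, the ATPase that loads the helicase, was at 13.2, 14.2 and 12.3 CPM in ENR-, 16.7 and 17.5 CPM in -VE- and 13.3, 13.3 and 11.9 CPM in Hyper-organoids (log2 fold change 0.37, SE 0.08, edgeR adjusted p 0.0351). Both -VE-organoid libraries lay above all others. At an unadjusted p under 0.05 by edgeR 8 of the 21 S phase genes were higher, a cut at which the share of all genes higher was not counted. Of the mitosis genes 0 of 27 were called by edgeR, with 2 lower at an unadjusted p under 0.05, beside 11.7% of all genes, and 1 called lower by DESeq2, beside 6.87%. With the culture series as a block 4 of the 49 genes were called in place of 1, all of them S phase genes that were higher, beside 5.44% of all genes. Cdc6 was not called without any 1 of ENR-organoid replicates 1, 2 and 3, -VE-organoid replicates 1 and 2 and Hyper-organoid replicate 2, each of which left 0 calls.

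**Figure D1:**
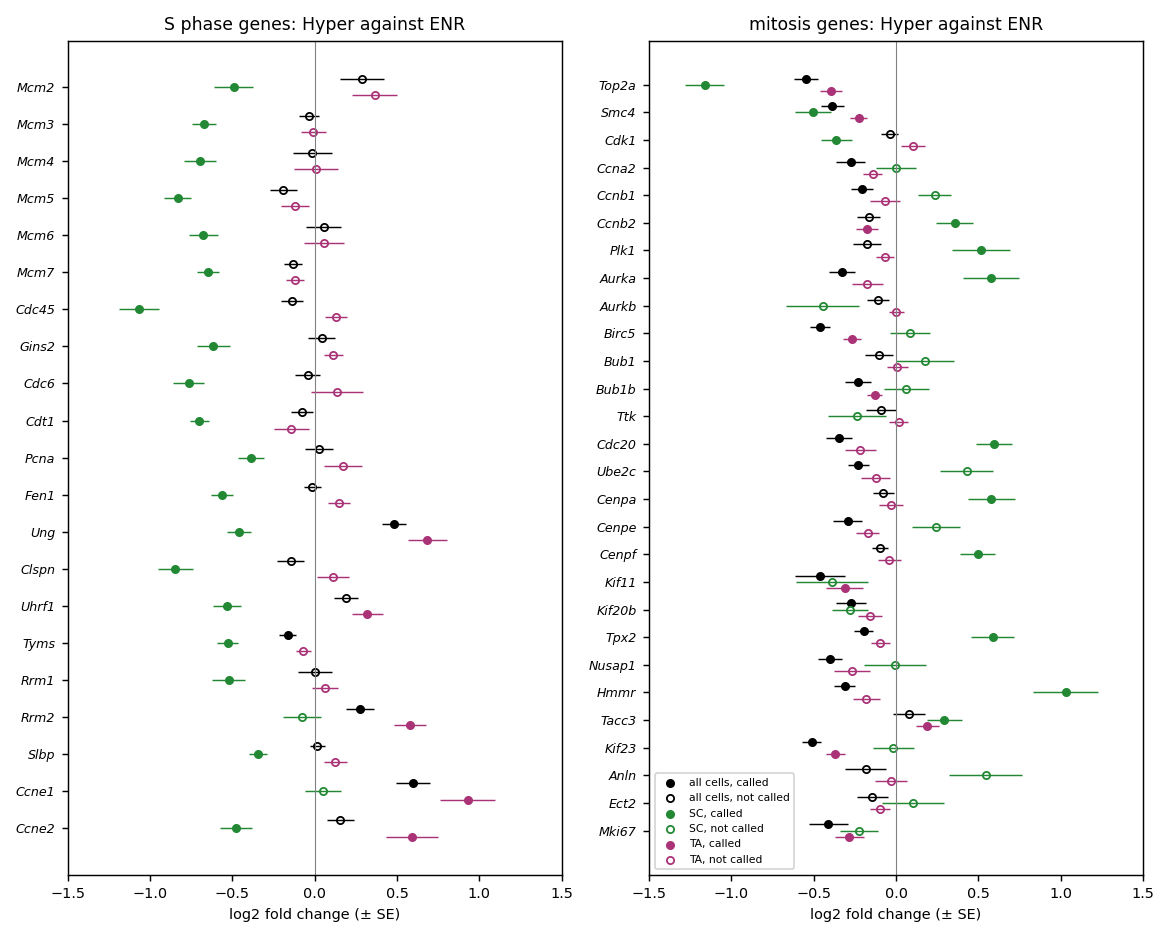
Log2 fold change (Hyper- against ENR-organoids, x axis) of each of the 49 genes (y axis, S phase genes on the left, mitosis genes and Mki67 on the right) over all cells (black), in SC cells (green) and in TA cells (magenta), with bars of 1 SE, filled points for called genes and open points for the others. In SC cells 19 of 21 S phase genes are called and lie to the left of 0, beside 23.4% of all genes called lower. In TA cells 5 of the 21 are called to the right, a share below the 29.2% of all genes called higher.

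Promoters of the 2 called genes of each list with the largest change over all cells are shown, since the members of a list are made together in the cycle. RefSeq (GRCm38.p6) gave the 250 bases before the first listed start for 18 of 21 S phase genes and 23 of 27 mitosis genes. Capitals mark CCAAT, the box bound by NF-Y, or its reverse complement ATTGG, and TTTGAA, the core of the cell cycle genes homology region, or its reverse complement TTCAAA. The sequences run 5′ to 3′ in the direction of transcription, for Ccne1 (chr7:38107491-38107740, minus strand), Ung (chr5:114130185-114130434, plus strand), Top2a (chr11:99024190-99024439, minus strand) and Kif23 (chr9:61946800-61947049, minus strand).
Ccne1: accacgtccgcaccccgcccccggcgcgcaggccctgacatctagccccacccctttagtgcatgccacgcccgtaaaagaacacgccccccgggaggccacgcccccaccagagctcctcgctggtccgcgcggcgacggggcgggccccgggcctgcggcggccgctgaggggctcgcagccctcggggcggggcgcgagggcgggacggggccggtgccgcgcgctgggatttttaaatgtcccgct
Ung: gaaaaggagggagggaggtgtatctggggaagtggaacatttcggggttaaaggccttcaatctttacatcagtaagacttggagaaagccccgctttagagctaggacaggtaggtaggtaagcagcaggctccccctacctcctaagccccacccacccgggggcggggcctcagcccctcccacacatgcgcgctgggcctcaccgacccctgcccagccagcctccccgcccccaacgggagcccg
Top2a: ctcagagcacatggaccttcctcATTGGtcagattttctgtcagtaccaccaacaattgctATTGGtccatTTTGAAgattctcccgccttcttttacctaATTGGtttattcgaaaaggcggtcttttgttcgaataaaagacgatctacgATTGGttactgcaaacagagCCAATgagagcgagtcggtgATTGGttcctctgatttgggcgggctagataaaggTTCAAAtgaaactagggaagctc
Kif23: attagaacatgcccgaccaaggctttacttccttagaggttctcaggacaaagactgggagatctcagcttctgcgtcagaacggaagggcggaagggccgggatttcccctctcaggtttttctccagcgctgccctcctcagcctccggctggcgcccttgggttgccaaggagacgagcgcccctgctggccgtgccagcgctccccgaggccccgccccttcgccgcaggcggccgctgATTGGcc
Top2a held 6 matches to CCAAT and 2 to TTTGAA, Kif23 held 1 to CCAAT, and Ccne1 and Ung held none of the letters searched. CCAAT on either strand was in 66.7% of the S phase promoters, in 78.3% of the mitosis promoters and in 34.5% of 27025 promoters of the same length. TTTGAA was in 16.7%, 30.4% and 16.3% in the same order. A promoter with both motifs was found for 11.1% of S phase genes, 30.4% of mitosis genes and 5.73% of all promoters. TTTGGCGC or TTTCCCGC, forms of the E2F site, stood in 4 S phase promoters (22.2%), in 0 mitosis promoters and in 1.35% of all promoters. No match says only that these letters are not in this window.

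The lists differed in the cell class where they were highest. In ENR- and in -VE-organoids all 27 mitosis genes had their highest level in TA cells, and 16 of 21 S phase genes had theirs in SC cells. In Hyper-organoids only 9 S phase genes were highest in SC cells and 11 were highest in TA cells, while 14 mitosis genes were highest in TA cells and 13 in EP cells, a class of 8 cells there. The summed level of the S phase list in SC cells, as CPM of the class, was 1899 ± 135 for ENR-organoids (SD, n = 3), 1949 ± 109 for -VE-organoids (SD, n = 2) and 1396 ± 101 for Hyper-organoids (SD, n = 3). In TA cells Hyper-organoids were highest, with means of 1367 ± 175, 1420.0 ± 31.8 and 1608 ± 89.2 CPM in the same order of groups. The mitosis list summed to 652 ± 27.8, 871 ± 148 and 754 ± 76.3 CPM in SC cells and to 3986 ± 68.2, 3808 ± 22.8 and 3898 ± 131 CPM in TA cells, again for ENR-, -VE- and Hyper-organoids. Enterocytes (EC), which have left the cycle, gave 217 ± 26.4, 329 ± 29.0 and 142 ± 37.6 CPM of the S phase list. The ratio of mitosis to S phase RNA in SC cells was 0.345 ± 0.0361 for ENR-organoids, 0.446 ± 0.0510 for -VE-organoids and 0.540 ± 0.0261 for Hyper-organoids. In TA cells the order was reversed, at 2.95 ± 0.460, 2.68 ± 0.0761 and 2.43 ± 0.212 for the same groups. Over all cells it was reversed too, at 2.11 ± 0.169, 1.86 ± 0.0261 and 1.73 ± 0.0973.

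**Figure D2:**
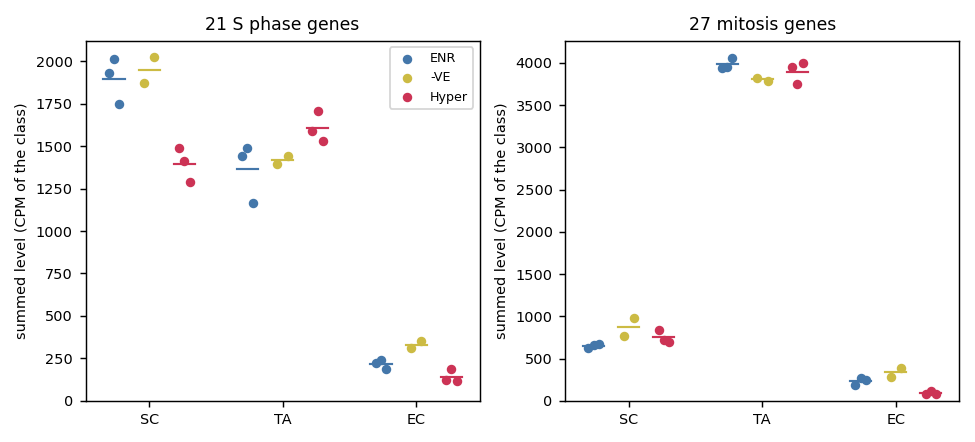
Summed level of the S phase list and of the mitosis list (y axis, CPM of the class) in SC, TA and EC cells, with 1 point per library, coloured by medium, and a line at the mean. In SC cells the S phase sums of Hyper-organoids (mean 1396) lie below those of ENR- (1899) and -VE-organoids (1949), and in TA cells they lie highest (1608).

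Within SC cells, which came from other clusters in Hyper- than in ENR-organoids, Hyper-organoids had less RNA of nearly all S phase genes. Of 21 genes 19 were lower and the other 2 did not pass, with a median log2 fold change of -0.56, beside 26.1% of all 13920 genes higher, 23.4% lower and a median of 0.00023. The falls took in all 8 helicase genes, both licensing genes, all 5 fork and repair genes, Tyms and Rrm1, Slbp and Ccne2, and left out Rrm2 and Ccne1. Cdc45, which joins the helicase when an origin fires, was at 19.8, 24.97 and 17.8 CPM in SC cells of ENR-, 21.5 and 24.6 CPM in those of -VE- and 10.5, 10.1 and 9.47 CPM in those of Hyper-organoids. All Hyper-organoid libraries stood far below all others, at 0.477-fold of the ENR level (log2 fold change -1.07, SE 0.12, edgeR adjusted p 0.000128). Clspn, which relays the replication checkpoint, was at 34.6, 35.2 and 33.2, 35.5 and 41.9 and 21.8, 17.3 and 18.2 CPM in ENR-, -VE- and Hyper-organoids (log2 fold change -0.85, SE 0.10, edgeR adjusted p 0.000181). Mcm5 of the helicase was at 134, 146 and 127, 133 and 140.0 and 81.9, 78.3 and 68.5 CPM (log2 fold change -0.83, SE 0.08, edgeR adjusted p 5.27e-05). Neither gene had a Hyper-organoid library within the range of the other media.

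Mcm7 in SC cells was at 181, 195 and 179 CPM in ENR-, 179 and 189 CPM in -VE- and 125, 119 and 111 CPM in Hyper-organoids (log2 fold change -0.65, SE 0.07, edgeR adjusted p 5.99e-05). Ung, higher in Hyper-organoids over all cells, was lower in their SC cells, at 91.4, 99.6 and 97.9 CPM in ENR-, 85.7 and 85.9 CPM in -VE- and 63.4, 73.2 and 73.7 CPM in Hyper-organoids (log2 fold change -0.46, SE 0.07, edgeR adjusted p 0.000765), with no overlap between the groups. Tyms (log2 fold change -0.53, SE 0.06, edgeR adjusted p 0.000151), Slbp (log2 fold change -0.35, SE 0.05, edgeR adjusted p 0.000734) and Ccne2, the second cyclin E gene (log2 fold change -0.48, SE 0.10, edgeR adjusted p 0.00287), fell too. Ccne1, at 27.04, 21.6 and 24.9, 28.9 and 34.6 and 23.8, 24.9 and 27.4 CPM in ENR-, -VE- and Hyper-organoids, overlapped between ENR and Hyper (log2 fold change 0.05, SE 0.11, edgeR adjusted p 0.725). Rrm2, at 81.1, 87.5 and 73.9, 94.03 and 126 and 83.2, 72.7 and 74.4 CPM, also overlapped (log2 fold change -0.08, SE 0.11, edgeR adjusted p 0.598). Of the 31 genes called in SC cells, leaving out any 1 library kept between 27 and 31. Beside these falls, Olfm4 and Vim differed between the same SC cells as given above.

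Mitosis genes in SC cells moved both ways. Of 27 genes 9 were higher and 3 were lower in Hyper- than in ENR-organoids, with a median of 0.18 and a range of -1.16 to 1.03, beside the 26.1% of all genes higher and 23.4% lower, so the share called lower lay under that of all genes and the share called higher near it. The 9 were Hmmr, Cdc20, Tpx2, Cenpa, Aurka, Plk1, Cenpf, Ccnb2 and Tacc3, which act in spindle assembly, at the centromere, as mitotic cyclin or kinase and in the exit from mitosis. Hmmr, a spindle protein, was at 6.03, 5.70 and 9.31 CPM in SC cells of ENR-, 9.18 and 12.3 CPM in -VE- and 15.7, 12.1 and 14.2 CPM in Hyper-organoids, a 2.04-fold rise (log2 fold change 1.03, SE 0.20, edgeR adjusted p 0.00218). Cdc20, the activator of the anaphase-promoting complex, was at 25.4, 25.4 and 31.95, 33.4 and 39.8 and 44.7, 40.5 and 38.9 CPM (log2 fold change 0.60, SE 0.11, edgeR adjusted p 0.00169). Cenpf, a kinetochore protein, was at 15.5, 14.9 and 17.8, 16.2 and 20.2 and 23.4, 22.6 and 21.5 CPM (log2 fold change 0.50, SE 0.11, edgeR adjusted p 0.0039). In each of the 3 genes every Hyper-organoid library was above every ENR-organoid library, and -VE-organoids reached the range of Hyper-organoids for Hmmr and Cdc20 and stayed below it for Cenpf.

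The 3 that fell in SC cells against the direction of their list were Top2a, Smc4 and Cdk1. Top2a was at 50.9, 57.5 and 53.9 CPM in ENR-, 55.3 and 72.2 CPM in -VE- and 26.9, 24.4 and 21.1 CPM in Hyper-organoids (log2 fold change -1.16, SE 0.12, edgeR adjusted p 6.46e-05), at 0.447-fold of the ENR level. Smc4 was at 80.8, 79.9 and 66.1, 87.4 and 96.8 and 61.4, 50.3 and 48.5 CPM (log2 fold change -0.51, SE 0.11, edgeR adjusted p 0.00405). Cdk1, the kinase of mitotic entry whose RNA is already made in S phase, was at 43.9, 47.5 and 53.9, 55.2 and 64.8 and 40.1, 36.9 and 35.4 CPM (log2 fold change -0.36, SE 0.09, edgeR adjusted p 0.0109), a call lost without ENR-organoid replicate 3 at an adjusted p of 0.0504. For Top2a, Smc4 and Cdk1 no Hyper-organoid library reached the lowest library of the other media. Mki67 in SC cells was at 51.2, 49.8 and 52.4, 49.8 and 66.8 and 45.9, 46.6 and 38.4 CPM in ENR-, -VE- and Hyper-organoids (log2 fold change -0.23, SE 0.11, edgeR adjusted p 0.131) and did not pass the test, although no Hyper-organoid library overlapped with the other media.

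Against -VE-organoids, SC cells of Hyper-organoids were lower in all 21 S phase genes, each of them called. The median was -0.63 and the range -1.20 to -0.29, beside 20.3% of all genes called lower and 23.7% higher. Since stem cells of -VE-organoids clustered with those of ENR-organoids in the study, different clusters stand side by side here too. Cdc45 (log2 fold change -1.20, SE 0.13, edgeR adjusted p 0.000117), Clspn (log2 fold change -1.02, SE 0.11, edgeR adjusted p 0.000123) and Cdc6 (log2 fold change -0.99, SE 0.10, edgeR adjusted p 8.61e-05) fell most. Ccne1 was not called without any 1 of ENR-organoid replicates 1 and 3, Hyper-organoid replicates 1 and 2 and -VE-organoid replicate 2 (adjusted p up to 0.329), nor with DESeq2's size factors (0.0618) or DESeq2's test (0.0708). Ung was not called without -VE-organoid replicate 1, -VE-organoid replicate 2 or Hyper-organoid replicate 1 (adjusted p up to 0.0822), and Rrm2 was not called without -VE-organoid replicate 2 (adjusted p 0.088). Of the mitosis genes 12 were lower and 1, Cenpf, was higher, with a median of -0.33. Top2a (log2 fold change -1.40, SE 0.13, edgeR adjusted p 4.51e-05), Aurkb, the kinase of the chromosomal passenger complex (log2 fold change -1.26, SE 0.22, edgeR adjusted p 0.00172), and Kif11, the kinesin that drives the spindle poles apart (log2 fold change -0.998, SE 0.22, edgeR adjusted p 0.00555), fell most, and Kif11 was not called without -VE-organoid replicate 2 (adjusted p 0.0776). The rise of Cenpf (log2 fold change 0.30, SE 0.11, edgeR adjusted p 0.0491) was lost when the culture series was a block (edgeR adjusted p 0.0505) and without any 1 of ENR-organoid replicates 1 and 2, -VE-organoid replicate 1 and Hyper-organoid replicates 1 and 2. Without -VE-organoid replicate 1 the median of the mitosis list was -0.58.

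Between -VE- and ENR-organoids all 27 mitosis genes were higher in SC cells of -VE-organoids, by a median of 0.49 on the log2 scale, but only Aurka, the kinase of spindle poles, was called, beside 0.862% of all genes higher and 0.675% lower. Aurka was at 4.47, 5.70 and 6.53 CPM in ENR-, 9.68 and 12.6 CPM in -VE- and 9.05, 7.70 and 7.76 CPM in Hyper-organoids (log2 fold change 1.02, SE 0.18, edgeR adjusted p 0.0307). All -VE- and Hyper-organoid libraries stood above all ENR-organoid libraries. At an unadjusted p under 0.05 22 of the 27 genes were higher, beside 9.12% of all genes. DESeq2 called 8 of them higher, beside 2.60% of all genes it could adjust. Blocking on the culture series gave 4 called genes of the 49 in place of 1, all of them mitosis genes that were higher, beside 1.87% of all genes. The 2 -VE-organoid libraries differed in these genes, as for Top2a above, and without -VE-organoid replicate 1 the median was 0.67 and 8 of the 49 genes were called. Without ENR-organoid replicate 1, 2 or 3 or -VE-organoid replicate 2 the number of calls was 0, without Hyper-organoid replicate 1 it was 6 and without Hyper-organoid replicate 3 it was 2. Of the S phase genes 0 of 21 were called by edgeR in this comparison, with 2 higher at an unadjusted p under 0.05 and 1 called higher by DESeq2, and their median was 0.06.

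In TA cells the share of S phase genes called higher and that of mitosis genes called lower lay below those of all genes without a block for the culture series and above them with it. In the fit without the block, of 21 S phase genes 5 were higher in Hyper- than in ENR-organoids and 16 did not pass, with a median of 0.13, and of 27 mitosis genes 7 were lower and 1, Tacc3, was higher, with a median of -0.13, beside 29.2% of all 14553 genes higher and 26.6% lower. Ccne1 was at 16.6, 18.96 and 12.4 CPM in TA cells of ENR-, 16.6 and 21.1 CPM in -VE- and 25.6, 33.1 and 33.2 CPM in Hyper-organoids, 1.90-fold higher than in ENR-organoids (log2 fold change 0.93, SE 0.17, edgeR adjusted p 0.00167). Ung was at 14.02, 16.1 and 11.99, 15.2 and 15.99 and 19.99, 25.1 and 22.9 CPM (log2 fold change 0.68, SE 0.12, edgeR adjusted p 0.00134). For both genes all Hyper-organoid libraries were above all libraries of the other media. Ccne2 was at 5.49, 4.78 and 3.67, 5.27 and 4.49 and 6.39, 7.67 and 7.03 CPM (log2 fold change 0.59, SE 0.16, edgeR adjusted p 0.0112), and Rrm2 was at 114, 121 and 92.1, 123 and 129 and 155, 175 and 159 CPM (log2 fold change 0.58, SE 0.10, edgeR adjusted p 0.00116). The fifth gene was Uhrf1, which recruits the maintenance methyltransferase to newly copied DNA (log2 fold change 0.32, SE 0.09, edgeR adjusted p 0.0176), a call lost without Hyper-organoid replicate 2. A fit that blocked on culture series gave TA cells 27 called genes of the 49 in place of 14, with 8 S phase genes higher and 2 lower and 2 mitosis genes higher and 14 lower, beside 31.9% of all genes higher and 31.3% lower. Without Hyper-organoid replicate 2 they held 8, and the median of the mitosis list was -0.087.

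The mitosis genes that fell in TA cells were Top2a, Kif23, Kif11, Birc5, Smc4, Ccnb2 and Bub1b. Ccnb2 and Bub1b were not called without Hyper-organoid replicate 2, nor was the rise of Tacc3. Top2a was at 276, 274 and 269 CPM in TA cells of ENR-, 243 and 269 CPM in -VE- and 193, 206 and 225 CPM in Hyper-organoids (log2 fold change -0.39, SE 0.07, edgeR adjusted p 0.00114). Kif23 was at 77.8, 74.6 and 76.996, 75.3 and 80.1 and 58.5, 55.99 and 63.05 CPM (log2 fold change -0.37, SE 0.06, edgeR adjusted p 0.000723). For both genes all Hyper-organoid libraries were below all ENR- and -VE-organoid libraries. Kif11 was at 98.2, 93.6 and 73.3, 85.4 and 80.6 and 77.1, 72.6 and 64.04 CPM, with ENR-organoid replicate 3 inside the range of Hyper-organoids (log2 fold change -0.31, SE 0.11, edgeR adjusted p 0.0407), and its call was lost without any 1 of 6 libraries, ENR-organoid replicate 3 and Hyper-organoid replicate 1 being the exceptions, with an adjusted p of up to 0.169. Mki67 in TA cells was at 276, 258 and 215, 238 and 239.6 and 211, 212 and 192 CPM (log2 fold change -0.28, SE 0.09, edgeR adjusted p 0.0234), without overlap between ENR- and Hyper-organoids, and its call was lost without ENR-organoid replicate 1, ENR-organoid replicate 2, Hyper-organoid replicate 2 or Hyper-organoid replicate 3, with an adjusted p of up to 0.108.

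Against -VE-organoids the same 5 S phase genes were higher in TA cells of Hyper-organoids and 4 mitosis genes (Kif23, Top2a, Smc4 and Birc5) were lower, with medians of 0.06 and -0.08, beside 25.4% of all genes higher and 21.9% lower, so that the called shares lay below those of all genes without the block. Hyper-organoid libraries are shared with the comparison above. Ccne1 changed by 0.70 (SE 0.19, edgeR adjusted p 0.0145) and Kif23 by -0.39 (SE 0.06, edgeR adjusted p 0.00125). A fit that blocked on culture series called 17 of the 49 genes in place of 9, with 7 S phase genes higher, 9 mitosis genes lower and 1 mitosis gene higher, beside 28.5% of all genes higher and 26.1% lower. Without -VE-organoid replicate 1 or 2 the count was 2, and without Hyper-organoid replicate 2 it was 4. Of the 8 named calls in this comparison, Kif23 alone was kept whichever library was left out. Between -VE- and ENR-organoids 0 of the 49 genes were called in TA cells by edgeR or DESeq2, beside 1.98% of all genes higher and 1.16% lower by edgeR, and 2 mitosis genes were lower at an unadjusted p under 0.05, beside 8.91% of all genes.

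**Figure D3:**
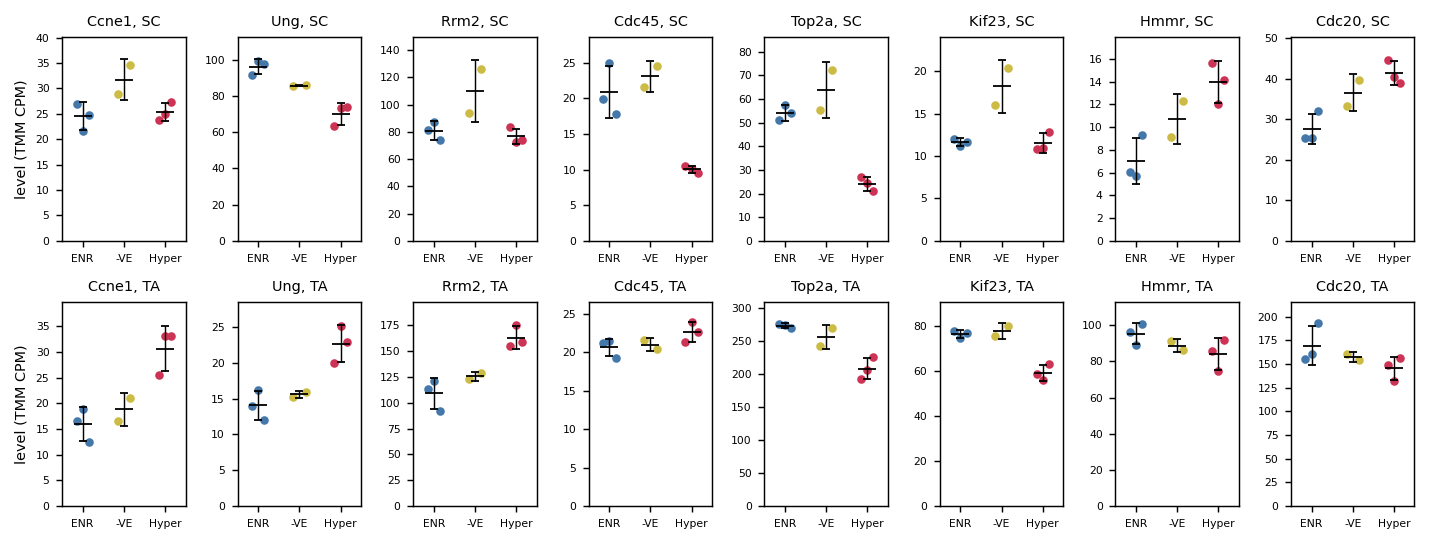
Level (y axis, CPM after TMM scaling) of 4 S phase genes and 4 mitosis genes in SC cells (top row) and TA cells (bottom row) of ENR-, -VE- and Hyper-organoids, with 1 point per library and bars for the mean ± SD. Ung is lowest in SC cells and highest in TA cells of Hyper-organoids, while Top2a is lowest in Hyper-organoids in both classes.

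Whether the change between media differed between cells labelled SC and TA was tested by the interaction of class and medium, with the library as a block. The labels come from clusters of the same cells, and these clusters differed between Hyper- and ENR-organoids. Stem cells of -VE-organoids clustered with those of ENR-organoids in the study, so SC clusters also differed between Hyper- and -VE-organoids. A difference in which cells bear each label can therefore not be told apart from a different change within a class. All 21 S phase genes changed more upwards in TA than in SC cells between Hyper- and ENR-organoids, with a median difference of 0.69 on the log2 scale, beside 6.84% of all 14704 genes in this direction and 8.23% in the other. Cdc45 differed by 1.18, SE 0.11, edgeR adjusted p 3.82e-07, and Ung by 1.11, SE 0.07, edgeR adjusted p 1.38e-08. Of the mitosis genes 14 changed more downwards in TA than in SC cells and 3 more upwards, with a median of -0.31. Hmmr differed by -1.26, SE 0.14, edgeR adjusted p 5.71e-06, Cdc20 by -0.83, SE 0.09, edgeR adjusted p 2.67e-06 and Top2a, whose fall was larger in SC cells, by 0.73, SE 0.10, edgeR adjusted p 4.86e-05. For Mki67 the difference was -0.09, SE 0.09, edgeR adjusted p 0.573, and it did not pass the test.

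Between Hyper- and -VE-organoids the interaction was again called for all 21 S phase genes in the same direction (median 0.66, beside 6.03% of all genes higher and 5.64% lower), and 14 mitosis genes were higher and 2 lower (median 0.27). Between -VE- and ENR-organoids 0 of the 21 S phase genes differed by edgeR, with 4 higher and 2 lower at an unadjusted p under 0.05, beside 5.58% and 6.52% of all genes, and a median of -0.02. Of the 27 mitosis genes 19 were called lower for TA minus SC (median -0.57), beside 0.592% of all genes higher and 0.694% lower. The median of this list within TA cells was -0.03 with 0 genes called, and within SC cells only Aurka was called. The 3 comparisons share libraries. Since Top2a was among the markers by which TA clusters were named, both classes were also pooled, an alternative chosen after seeing the data. The mix of classes in the pooled cells differed, with 868 SC and 2764 TA cells in ENR-, 1716 and 3453 in -VE- and 3481 and 3900 in Hyper-organoids. The mitosis list was at 652, 871 and 754 CPM in SC and at 3986, 3808 and 3898 CPM in TA cells, in the same order. The part of this mix in the pooled counts was not tested. In the pooled cells, 4 S phase genes were higher and 5 lower in Hyper- than in ENR-organoids (median -0.10) and 26 of 27 mitosis genes were lower (median -0.45), beside 30.1% of all genes higher and 27.5% lower. Against -VE-organoids, 8 S phase genes (median -0.19) and 17 mitosis genes (median -0.31) were lower in the pooled cells, beside 26.2% of all genes higher and 23.2% lower.

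Cell by cell, fewer SC cells of Hyper-organoids carried a set of S phase transcripts. To compare libraries at equal depth, each cell was thinned to 10000 UMIs, and a cell was counted where at least 5 genes of a list had a UMI. For the S phase list this was 91.1%, 88.6% and 92.1% of SC cells in the ENR-organoid libraries, 89.6% and 94.3% in the -VE-organoid libraries and 79.4%, 75.9% and 69.96% in the Hyper-organoid libraries. The 3 Hyper-organoid libraries were below the 5 others, with a mean of 75.1% ± 4.77 (SD, n = 3) against 90.6% ± 1.83 (SD, n = 3) for ENR-organoids, and the widest exact binomial interval of a library, in ENR-organoid replicate 3 (228 cells), was 87.8% to 95.3%. Without thinning the shares were 93.0% to 98.5%, so the cut was then near its ceiling. Cells within 1 gene of the cut (4 or 5 genes) made up 4.77% to 15.7% of SC cells.

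Mitosis transcripts from at least 5 genes were found in 36.7%, 36.8% and 38.6% of SC cells in ENR-, 45.02% and 61.2% in -VE- and 43.8%, 35.3% and 35.7% in Hyper-organoids. Hyper- overlapped with ENR-organoids, and -VE-organoid replicate 2 stood above all others. In TA cells the S phase shares were 87.2%, 88.6% and 79.6%, 87.4% and 92.05% and 90.5%, 93.9% and 91.8%, with the Hyper-organoid libraries above the ENR-organoid libraries and overlapping with -VE-organoids. Without thinning Hyper- and ENR-organoids overlapped, with 94.8% in ENR-organoid replicate 3 and 94.5% in Hyper-organoid replicate 3. The mitosis shares in TA cells were 99.9%, 99.8% and 99.9%, 99.9% and 99.8% and 98.8%, 97.97% and 98.6% in the same order of groups. All were near the ceiling, with the Hyper-organoid libraries below the others and a mean difference from ENR-organoids of -1.39 percentage points. With at least 8 genes in place of 5 that difference was -4.31 percentage points, and without thinning it was 0.947, in the opposite direction. Enterocytes, which should lack both lists, gave 3.76%, 6.73% and 4.46%, 11.7% and 13.8% and 0%, 1.75% and 0% for S phase genes and 5.91%, 7.03% and 10.4%, 5.52% and 15.6% and 0%, 3.51% and 5.56% for mitosis genes, at median depths of 30103.5 to 57295 UMIs per cell before thinning, against 31294 to 43892 in SC cells. The 0 shares rest on 7 cells of Hyper-organoid replicate 1 and 18 of replicate 3, where a limit of 3 cells gives shares of up to 42.9% and 16.7% and the exact upper limits are 41.0% and 18.5%. In each library the SC and TA shares were higher than those of its enterocytes, although the 7 enterocytes of Hyper-organoid replicate 1 set a limit near its SC mitosis share of 43.8%. SC cells with fewer than 5 genes of either list were more frequent in Hyper-organoids, where 80.9% ± 4.31 (SD, n = 3) passed for at least 1 list, against 93.2% ± 1.39 (SD, n = 3) for ENR-organoids and 94.6% ± 2.84 (SD, n = 2) for -VE-organoids. Intervals cover counting error only, and thinning left out 0 to 166 cells per class and library.

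**Figure D4:**
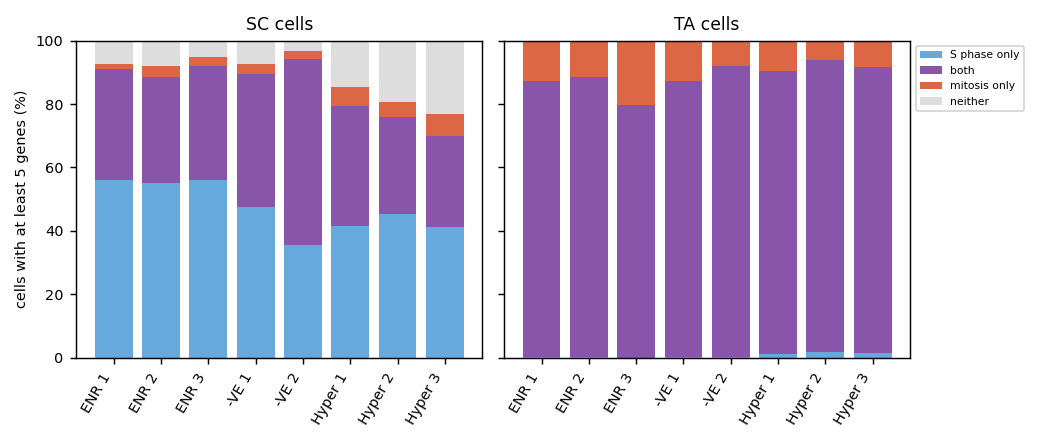
Share of SC cells and of TA cells (y axis, %) in each of the 8 organoid libraries (x axis) with at least 5 S phase genes only, both lists, at least 5 mitosis genes only, or neither, after thinning to 10000 UMIs. The grey part, neither list, is largest in SC cells of the 3 Hyper-organoid libraries, where 80.9% on average pass for at least 1 list, against 93.2% in ENR-organoids.

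Further genes of the same pathways were counted from 2 lists, 50 of DNA replication and 56 of mitosis, none of them a member. Over all cells, 7 replication genes were higher and 17 lower in Hyper- than in ENR-organoids, and 4 mitosis genes were higher and 25 lower. For all genes the shares were 29.5% and 27.3%. In SC cells 40 of 50 replication genes were lower and 2 higher, and 17 of 56 mitosis genes were lower and 8 higher, beside 23.4% and 26.1% of all genes. In TA cells 10 replication genes were higher and 14 lower, and 6 mitosis genes were higher and 16 lower, beside 29.2% and 26.6% of all genes in the fit without a block. The 3 largest falls of replication genes over all cells were E2f2, a transcription factor of S phase genes, at -1.22 (log2 scale, SE 0.06, edgeR adjusted p 3.04e-06), Tk1, thymidine kinase, with -0.64, and Mcm10, a helicase cofactor, with -0.55. The 3 largest rises were E2f1, the founding E2F factor, with 0.49, Chaf1b, a subunit of chromatin assembly factor 1, with 0.43, and Tipin, a fork protection protein, with 0.29.

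E2f1, Chaf1b and Tipin were called lower in SC cells and higher in TA cells, as Ung was. E2f1 was at -0.45 on the log2 scale in SC cells (edgeR adjusted p 0.00206) and at 0.67 in TA cells (edgeR adjusted p 0.00498). E2f2 fell in both classes, by 0.77 on the log2 scale in each (edgeR adjusted p 0.000171 in SC and 0.000221 in TA cells). Among the further mitosis genes, Spc24, of the Ndc80 complex at the kinetochore, fell by 0.70, the kinesin Kif15 by 0.64 and the kinetochore scaffold Knl1 by 0.55 on the log2 scale over all cells. Psrc1, a spindle protein that is also a target of p53, rose most, by 1.57 (SE 0.08, edgeR adjusted p 3.58e-06), ahead of Cks1b, a Cdk subunit, with 0.32 and Mybl2, a transcription factor of late cycle genes, with 0.32 (edgeR adjusted p 0.0486). Against -VE-organoids 41 of 50 replication genes were lower and 1 higher in SC cells of Hyper-organoids, and 26 of 56 mitosis genes were lower and 2 higher, beside 20.3% of all genes lower and 23.7% higher.

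In the colon, crypts of DSS-treated mice had less S phase RNA than crypts of normal mice and, over annotated cells at full depth, about as much mitosis RNA. Each condition had 1 library (1132 annotated cells and 19906845 UMIs in normal, 1933 cells and 32397122 UMIs in DSS), so there was no test, and intervals cover counting error only. The S phase list summed to 498 CPM (95% exact Poisson interval 489 to 508) in normal and 288 CPM (282 to 294) in DSS crypts, a ratio of 0.577 (0.561 to 0.594). All 21 genes were lower in DSS, whereas 6503 of 12074 genes of at least 1 CPM were higher, and the median difference of log2(CPM + 1) was -0.77 beside 0.027 over those genes. The mitosis list summed to 236 CPM (229 to 243) and 239 CPM (234 to 245), a ratio of 1.01 (0.978 to 1.05), and 10 of its 27 genes were higher in DSS. Mki67 was at 18.4 CPM (16.6 to 20.4) in normal and 16.5 CPM (15.1 to 17.9) in DSS crypts. With all deposited barcodes in place of the annotated cells the ratios were 0.701 for the S phase and 1.19 for the mitosis list. With cells thinned to 5000 UMIs they were 0.607 and 1.14. In both settings the mitosis list was higher in DSS crypts with intervals that did not overlap. For Mki67 the ratio turned from 0.894 to 1.098 with all barcodes and to 1.13 with cells thinned to 5000 UMIs, so its direction was not stable.

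Uhrf1 was at 16.1 CPM (14.4 to 17.9) in normal and 5.71 CPM (4.92 to 6.60) in DSS crypts, Mcm5 at 23.6 CPM (21.5 to 25.8) and 9.88 CPM (8.82 to 11.02), and Cdc45 at 5.98 CPM (4.95 to 7.15) and 2.01 CPM (1.55 to 2.56). These 3 S phase genes differed most. Clspn, at 4.22 CPM (3.37 to 5.22) and 2.81 CPM (2.26 to 3.45), had intervals that overlapped. Of the mitosis genes, Ccnb2, Kif23, Ube2c and Cenpa were higher and Cdk1 and Smc4 lower in DSS crypts with intervals that did not overlap. The share of all genes with such intervals was not counted, so this separation is not shown to be particular to these genes. Ccnb2 was at 9.64 CPM (8.33 to 11.1) in normal and 14.2 CPM (12.96 to 15.6) in DSS crypts, and Cdk1 at 14.2 CPM (12.6 to 15.97) and 10.9 CPM (9.76 to 12.1).

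The colonic cells fall into 25 clusters of the authors. Over both libraries the mitosis list was at 2653, 1052 and 505 CPM in clusters 13, 22 and 20 and at most at 315 CPM in any other, whereas the S phase list was spread more widely, from 1821 CPM in cluster 13 to 67.8 CPM in cluster 12, with 791 CPM in cluster 11, where 93.5% of cells had a UMI of the leukocyte gene Ptprc. Clusters 22 and 20 held 0 cells of normal crypts and 21 and 30 of DSS crypts, with medians of 1570 and 4006 UMIs per cell. Cluster 13 had the highest level of the mitosis list (36 cells in normal and 54 in DSS crypts), with 2286 and 2992 CPM of the mitosis list and 2171 and 1497 CPM of the S phase list in normal and DSS. In cluster 2, labelled stem (102 and 168 cells), the S phase list was at 1119 CPM in normal and 304 CPM in DSS crypts and the mitosis list at 249 and 181 CPM. Clusters differ in their numbers of cells between the libraries, as in cluster 4 with 11 cells in normal and 230 in DSS crypts. Without the 6 clusters in which over 50% of cells had a UMI of Ptprc, the ratios of DSS to normal were 0.565 for the S phase and 1.03 for the mitosis list.

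**Figure D5:**
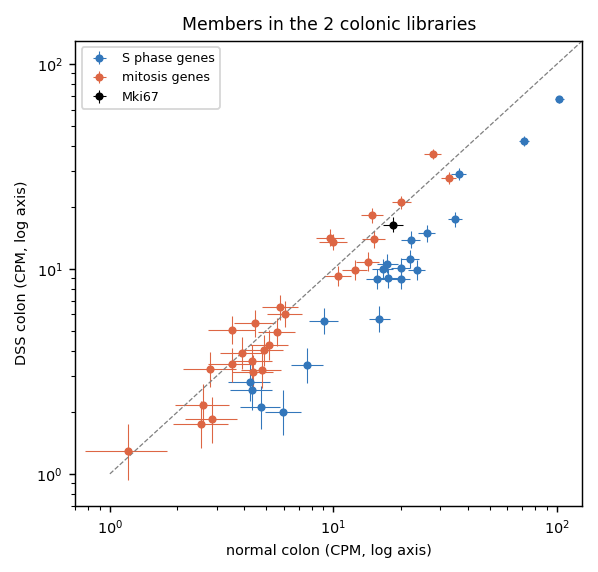
Level of each of the 49 genes in normal (x axis) and DSS (y axis) colonic crypts, both in CPM on log axes, with 95% exact Poisson intervals and a dashed line of equal levels. All 21 S phase genes lie below the line, while the 27 mitosis genes lie on both sides of it.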

How the data were processed

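UMI counts per gene and cell were deposited by the authors as raw counts, made with Cell Ranger (3.0.0 in the submitters' processing notes, 3.1.0 in the matrix headers) on mm10 and annotated with Seurat 3.1.4. The kit reads 3′ ends, so counts do not depend on transcript length. The deposited annotation kept cells with at least 501 genes and at most 20% mitochondrial UMIs, whereas the methods state other limits, and doublet treatment is not given in the sources used here. Counts of the members and of the further pathway genes (155 genes) in the deposited count table were compared with the matrices, and 0 of 3906620 entries differed. No columns were left unmapped.

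Counts of annotated cells were summed per library, over all cells and within SC and TA, and fitted with edgeR 4.0.16 in R 4.3.3 (TMM, filterByExpr, glmQLFit and glmQLFTest) over the 8 organoid libraries, with Benjamini-Hochberg adjustment over all genes. SE is the log2 fold change divided by the root of F. Member levels are CPM after TMM scaling, and summed levels are plain CPM. The class interaction was fitted with the library as a block, and DESeq2 1.42.0 was an alternative. Scripts were tested on simulated data. Shares have exact (Clopper-Pearson) 95% intervals and colonic levels exact Poisson ones. Member names and lists were chosen with earlier results of these data known.

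Values per library are given, for each list, for the 4 genes with the highest mean level, the 3 called genes that rose and the 3 that fell most in Hyper- against ENR-organoids over all cells, the 3 that changed most in SC and in TA cells, Mki67, and up to 4 called against their list's median. Cdc6, Aurka and the colonic genes named were chosen after their values were seen. Same-series ENR- and Hyper-organoid libraries (the first part of the sample code) deviated together, so the numbers pair them. Correlations were 0.192, 0.170 and 0.436 over all cells (16037 genes) and 0.145, 0.146 and 0.380 in TA cells (14553 genes). SC cells gave 0.0923, 0.0764 and 0.285 (13920 genes), and -VE-organoids have 2 series only. The highest ENR-Hyper pair across series was ENR-organoid replicate 2 with Hyper-organoid replicate 1. It gave 0.129 over all cells, 0.122 in TA and 0.116 in SC cells. In SC cells this lay above the same-series values of replicates 1 and 2, so there the correlations do not establish the pairing.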

Additional observations from a re-analysis of the deposited data

Results flagged for a closer look

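The changes between media differed between SC and TA cells for many of these genes, by the edgeR test of the interaction of class and medium with the library as a block. Between Hyper- and ENR-organoids 21 of 21 S phase genes and 17 of 27 mitosis genes differed, beside 6.84% of all genes higher and 8.23% lower for TA minus SC. Between Hyper- and -VE-organoids 21 and 16 differed, beside 6.03% and 5.64% of all genes. Between -VE- and ENR-organoids 0 S phase genes and 19 mitosis genes differed, beside 0.592% and 0.694%. Of the genes, 4 were called in opposite directions in the 2 classes between Hyper- and ENR-organoids. The share of all genes with such opposite calls was not counted, so these calls are not shown to be particular to the lists. Ung fell in SC and rose in TA cells, with a difference (TA minus SC) of 1.11 on the log2 scale, as did Uhrf1 with 0.83 and Ccne2 with 1.02, while Ccnb2, cyclin B2, rose in SC and fell in TA cells with -0.56. The TA calls of Uhrf1 and Ccnb2 were lost without Hyper-organoid replicate 2. Top2a was among the markers by which TA clusters were named, clusters of the same class differed between media, and the part of either in these differences was not tested.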

How the results depend on the processing

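No call of a named gene turned its direction in any alternative. Counts of called genes moved in 48 of 159 alternatives by over 1.5 times, and medians in 8 of 246 by over the spread of replicates, while single named genes lost a call in 137 of their alternatives and stayed on their side of the threshold in 1110. With a fold of at least 2 asked for in addition, the called genes of the 49 numbered 0 over all cells in each comparison, 3 in SC cells against ENR-, 4 in SC cells against -VE-organoids, and 0 in TA cells against either. With the culture series as replicate block they numbered 4 in place of 1 between -VE- and ENR-organoids, over all cells and in SC cells alike, and in TA cells 27 in place of 14 against ENR- and 17 in place of 9 against -VE-organoids. Of the named calls the block ended Ung over all cells (edgeR adjusted p 0.0605) and Cenpf in SC cells (edgeR adjusted p 0.0505), both against -VE-organoids, and no other.

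Over all cells against -VE-organoids the count was 10 with a CPM filter (10 or more in 2 libraries) and 14 with all deposited barcodes. Against ENR-organoids the same 2 settings gave 14 each and kept 11 and 12 of the 21 calls. Between -VE- and ENR-organoids over all cells it was 2 with DESeq2's size factors, 2 with the CPM filter, 0 with cells thinned to 10000 UMIs, 3 with all barcodes, 5 with DESeq2 and 0 with SC and TA cells only, and in SC cells it was 11 with no filter on low counts, 2 with the CPM filter, 0 when thinned and 9 with DESeq2. With SC and TA cells only (chosen after seeing the data) Hyper- against ENR-organoids gave 36, the median of the S phase list was -0.10, that of the mitosis list -0.45, and that of the mitosis list between -VE- and ENR-organoids -0.14. The mix of SC and TA cells differed between media, as given above. With all barcodes the mitosis median against ENR-organoids was -0.14. Leaving out each library in turn, the counts ranged over all cells from 12 to 23 against ENR-, from 6 to 30 against -VE- and from 0 to 3 between -VE- and ENR-organoids, in SC cells from 27 to 32, 24 to 36 and 0 to 8, and in TA cells from 8 to 15, 2 to 12 and 0 to 0, in the same order. The mitosis median ranged in SC cells from -0.58 to -0.17 against -VE- and from 0.33 to 0.67 between -VE- and ENR-organoids, and in TA cells from -0.14 to -0.087 against ENR- and from -0.13 to -0.040 against -VE-organoids.

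The share differences depended on the cut and depth, in percentage points. For S phase genes in SC cells the difference of Hyper- from ENR-organoids was -15.5, and -6.83 with at least 3 genes, -20.4 with at least 8, -7.72 at 20000 UMIs, -3.43 without thinning and -20.8 with at least 10 UMIs. From -VE-organoids it was -16.9, and -8.18, -25.6, -8.34, -3.85 and -24.5 in that order, and -25.9 at 5000 UMIs. For mitosis genes in SC cells the difference from ENR-organoids was 0.885, and -5.13, 5.66, -5.89, -5.93 and 5.31, and 5.51 at 5000 UMIs, so it had no stable direction, and it was -1.87 without Hyper-organoid replicate 1. For S phase genes in TA cells it was 6.93, and 1.87, 12.2, 0.695, 2.87 and 13.0, 11.5 at 5000 UMIs, 3.26 with Mki67 counted in the list and 4.18 without ENR-organoid replicate 3. For mitosis genes in TA cells it was -1.39, and -0.367, -4.31, -0.332, 0.947 and -3.48 in the order of the first list, and -4.70 at 5000 UMIs. The colonic ratios were 0.701 and 1.19 with all barcodes and 0.607 and 1.14 with cells thinned to 5000 UMIs, and those of Mki67 were 1.098 and 1.13 in place of 0.894. Depth limits members of few UMIs and the classes of few cells, such as enterocytes of Hyper-organoids (86 cells).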
